A study of Homo sapiens with 24 samples.

Results

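The snoRNA host lncRNA genes are non-coding genes whose introns carry small nucleolar RNAs (snoRNAs). They were taken here as GAS5, ZFAS1, DANCR and every gene whose symbol is SNHG followed by a number, which gave 31 genes of the 54377 in the gene-body count table. Host genes are transcribed by RNA polymerase II (Pol II), and the snoRNAs are released from the spliced introns by exonucleases. Box C/D snoRNAs guide 2′-O-methylation and box H/ACA snoRNAs guide pseudouridylation, mainly of ribosomal RNA in the nucleolus. The spliced exons of several hosts, GAS5 among them, begin with a pyrimidine tract, are bound by ribosomes without encoding a conserved protein and are degraded by nonsense-mediated decay.

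The data are mNET-seq libraries, in which chromatin is digested and short RNA held by Pol II is sequenced after immunoprecipitation. Antibodies against the carboxy-terminal domain of Pol II phosphorylated at tyrosine 1 (Y1P), serine 2 (S2P) or serine 5 (S5P) were used on wild-type U2OS cells, a human osteosarcoma line. Cells were nonirradiated or received 10 Gy of ionising radiation (IR), with collection 10 min later per the labels, while the study's methods give a longer interval. The 6 groups, each antibody with and without IR, held 2 libraries each, every one summed from 2 sequencing runs, which made 12 libraries of 16220773 to 33144659 gene-body counts. Nothing in the labels says that replicates 1 and 2 were separate cultures, and the p-values then reflect the scatter among these 12 libraries alone.

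Nonirradiated Y1P replicate 2 stood apart, with a trimmed mean of M-values (TMM) factor of 0.835 against 0.942 to 1.09 in the other 11 libraries, and counts of called genes with Y1P are also given without that replicate number. Of the 9 bone and osteosarcoma markers, 5 passed the filter on low counts and BGLAP was at 0 in all libraries. Their summed level was 611 to 837 CPM (counts scaled to a common library size), against 8.52 to 13.2 CPM for 8 markers of other lineages. Most of that sum came from RUNX2 (a mean of 575 CPM), with SPARC at 83.2 and COL1A1 at 48.3 CPM. SP7 (0.555 CPM) and ALPL (3.40 CPM) were below EPCAM of the other lineages (6.04 CPM), and COL1A2, IBSP and SPP1 did not pass the filter. Of the 8 markers of other lineages, 3 passed it.

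The counts of a host lncRNA gene include any reads from snoRNAs in the part of its gene body that no other gene overlaps. Among the snoRNAs printed below, SNORD50A and SNORA26 lie in overlapped parts, and SNORD104 lies only partly in the gene body. Of 942 snoRNA genes in GENCODE release 44, the 868 of up to 200 nt had no row of their own in the table, and the 74 longer ones held 0.0026% of all counts. Gene bodies ran from 200 bp downstream of the transcription start site to the transcript end site, and reads that overlapped more than one gene body were left out by the authors. The sequences below show what lies inside these genes. They were read from hg38 on the strand of the host, and in box C/D snoRNAs the capitals mark the first TGATGA (C box) within 20 bases of the 5′ end and the last CTGA (D box) within 20 bases of the 3′ end. In box H/ACA snoRNAs the capitals mark the last ACA within 12 bases of the 3′ end.
SNORD27 (SNHG1, chr11:62855012-62855083, minus strand): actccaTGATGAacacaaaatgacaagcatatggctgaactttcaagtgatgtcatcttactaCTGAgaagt
SNORD25 (SNHG1, chr11:62855565-62855631, minus strand): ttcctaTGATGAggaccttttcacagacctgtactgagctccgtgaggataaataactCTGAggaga
SNORD44 (GAS5, chr1:173865968-173866028, minus strand): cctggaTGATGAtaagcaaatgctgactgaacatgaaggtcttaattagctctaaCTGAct
SNORD74 (GAS5, chr1:173867674-173867745, minus strand): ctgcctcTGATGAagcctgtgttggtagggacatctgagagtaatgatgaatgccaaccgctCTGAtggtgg
SNORD104 (SNHG25, chr17:64146078-64146157, plus strand): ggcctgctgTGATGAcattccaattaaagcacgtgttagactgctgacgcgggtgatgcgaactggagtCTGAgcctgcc
SNORD60 (SNHG19, chr16:2155023-2155105, minus strand): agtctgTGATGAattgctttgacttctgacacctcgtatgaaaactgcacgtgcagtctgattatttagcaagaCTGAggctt
SNORD65 (SNHG29, chr17:16441226-16441298, plus strand): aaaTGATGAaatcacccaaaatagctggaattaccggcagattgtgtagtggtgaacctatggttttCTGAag
SNORD12 (ZFAS1, chr20:49280683-49280772, plus strand): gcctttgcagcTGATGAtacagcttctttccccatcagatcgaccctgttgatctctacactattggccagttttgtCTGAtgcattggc
SNORD1B (SNHG16, chr17:76561108-76561193, plus strand): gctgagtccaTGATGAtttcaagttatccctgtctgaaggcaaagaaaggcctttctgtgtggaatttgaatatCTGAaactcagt
SNORD50A (SNHG5, chr6:85677294-85677368, minus strand): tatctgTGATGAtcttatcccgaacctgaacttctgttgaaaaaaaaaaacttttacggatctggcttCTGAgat
SNORA26 (DANCR, chr4:52713249-52713370, plus strand): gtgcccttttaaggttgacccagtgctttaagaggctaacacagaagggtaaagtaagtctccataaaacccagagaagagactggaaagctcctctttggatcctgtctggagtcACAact
SNORA17A (SNHG7, chr9:136726747-136726879, minus strand): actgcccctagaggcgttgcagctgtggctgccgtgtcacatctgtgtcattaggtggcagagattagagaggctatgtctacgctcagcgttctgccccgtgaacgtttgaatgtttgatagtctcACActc
Of the 121 box C/D snoRNAs read from member genes (that of SNHG6 not read), 84 lay in SNHG14. Of the other 37, 24 held the TGATGA and all 37 the CTGA, so that 64.9% held both, against 0 of 23 box H/ACA snoRNAs and 0.0952% of the 13654 windows of 75 bases tiled over the member genes (host strand only). These 37 box C/D snoRNAs had a median length of 74 nt, and the 23 box H/ACA snoRNAs one of 134 nt. SNORD104 lies across the upstream limit of the SNHG25 gene body, with its last 21 bases inside, while SNORA50C of the same host lies wholly inside.

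Start sites in RefSeq differed among the hosts. A run of at least 8 bases that were all C or T and overlapped the 10 bases on either side of the start site was present in 8 of 27 members with a RefSeq promoter (29.6%) and in 15.2% of the 35116 RefSeq promoters. SNHG12 and SNHG29 had such a run, and GAS5 had none of that length at its RefSeq start. RefSeq starts can differ from those of the counted genes. The GAS5 window lies wholly upstream of the GAS5 gene as counted (chr1:173858559-173868882), so it does not show the start of that gene. The SNHG12 and SNHG29 windows lie inside their genes as counted (chr1:28578538-28583132 and chr17:16438767-16480249). Both are downstream of the counted start and do not show it either. The windows of SNHG12, SNHG29 and GAS5 are printed from 30 bases upstream of the start site (RefSeq, GRCh38.p14), with the longest run in capitals.
SNHG12 (chr1:28581844-28581903, minus strand): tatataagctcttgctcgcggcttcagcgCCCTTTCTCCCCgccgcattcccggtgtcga
SNHG29 (chr17:16438957-16439016, plus strand): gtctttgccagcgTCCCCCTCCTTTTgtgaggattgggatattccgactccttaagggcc
GAS5 (chr1:173869016-173869075, minus strand): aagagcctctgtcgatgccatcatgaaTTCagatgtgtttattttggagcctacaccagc

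Annotation split the 31 genes into 4 kinds, a split chosen after their values were seen. 13 genes held at least 1 box C/D snoRNA and shared little or none of their gene body with another gene on the same strand, 8 held box H/ACA snoRNAs only, and SNHG10 and SNHG22 held no snoRNA that was annotated as their own. The remaining 8 were mostly overlapped by another gene body on the same strand, for example DANCR by LINC01618, SNHG20 by SEC14L1, SNHG4 by MATR3 and SNHG3 by RCC1. GAS5 had 0 snoRNAs in GENCODE and 11 in RefSeq, and both sources were used. The annotation release behind the counts was not given in the sources used here, so the overlaps are those of GENCODE release 44.

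Per kb of gene body, hosts of box C/D snoRNAs had the highest median level. Their median over 12 libraries was 148 normalised CPM per kb (the lowest being SNHG14 and the highest, at 20267, SNHG25), against 7.42 (0.0595 to 22.4) for the hosts of box H/ACA snoRNAs only. SNHG25 (a gene body of 340 bp, with SNORD104 only partly inside) was at 20267 CPM per kb, SNHG1 at 9553, SNHG19 at 3403 and GAS5 at 2226. After a gap came SNHG12 (SNORD99 and 3 box H/ACA snoRNAs) at 173, SNHG29 at 159, SNHG6 (SNORD87) at 148 and ZFAS1 at 121 CPM per kb. SNHG7, with SNORA17A and SNORA17B, led the box H/ACA hosts at 22.4 CPM per kb. SNHG14, which carries 84 box C/D snoRNAs and is best known from neurons, was at 1.197 CPM per kb. Among protein-coding genes, 65 that held a box C/D snoRNA clear of other genes had a median of 18.8 CPM per kb, 70 with box H/ACA snoRNAs only one of 2.53, and 14408 without a snoRNA one of 0.552, with no allowance for overlapped stretches. Their snoRNAs had to lie wholly inside the gene body, a condition not set for the members and not met by SNORD104 of SNHG25. These levels are a description across genes, which are not independent replicates.

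**Figure D1:**
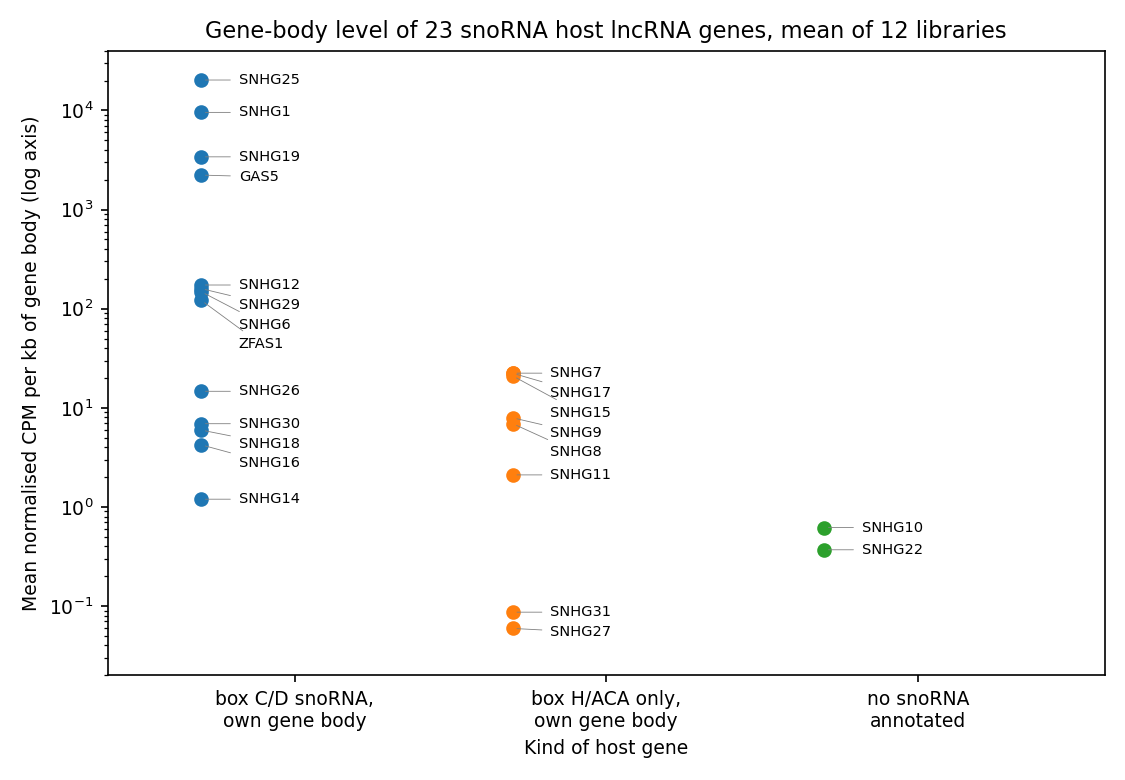
Mean normalised CPM per kb of gene body over the 12 libraries (log axis) of the 23 snoRNA host lncRNA genes that share little or none of their gene body, grouped by the kind of snoRNA they hold. The 4 highest, SNHG25, SNHG1, SNHG19 and GAS5, lie between 2226 and 20267 and all hold box C/D snoRNAs, while the box H/ACA hosts lie between 0.0595 and 22.4.

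The 8 mostly overlapped genes are left out of these levels, because reads in the overlapped part were not counted while the length is that of the whole gene body. SNHG3, SNHG4 and SNHG28 had 0 counts in every library, and none of their gene body was free of other genes. Per kb of the free part alone, SNHG5 (199 bp free, 0.7% of its gene body) was at 78.8 CPM per kb, DANCR (69 bp, 0.6%) at 56.4, SNHG32 (47 bp) at 17.3, SNHG20 (2033 bp) at 1.29 and SNHG21 (2320 bp) at 0.791, values that rest on short stretches whose limits come from GENCODE release 44. In these genes SNORD50A and SNORD50B of SNHG5 and SNORA26 of DANCR lay in the overlapped part, so the counts describe only the rest of the gene. The counts of the other 28 genes passed the filter on low counts (edgeR filterByExpr), as did 21246 genes in all.

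Together the 31 genes took between 2.93% and 16.0% of all gene-body counts. With Y1P the share was 5.95% and 16.0% in nonirradiated replicates 1 and 2, and 8.11% and 9.86% in irradiated ones. With S2P it was 4.82% and 8.77% without IR, and 2.93% and 6.89% with IR. With S5P it was 5.46% and 9.30% without IR, and 5.57% and 9.45% with IR. Replicate 2 was above replicate 1 in all 6 groups, and the nonirradiated and irradiated libraries overlapped for every antibody. The group means were 11.0% ± 7.13 (SD, n = 2) and 8.98% ± 1.24 for Y1P, 6.79% ± 2.80 and 4.91% ± 2.80 for S2P, and 7.38% ± 2.71 and 7.51% ± 2.74 for S5P, without and with IR. Each difference between means was smaller than the SD of the nonirradiated group, an SD that includes the difference between replicate numbers and is not the spread of changes within pairs. SNHG1 alone held 37.3% to 49.5% of the members' counts in a library, and GAS5 25.3% to 31.2%. Box H/ACA hosts together took 0.0473% to 0.0816% of a library, and without SNHG1 and GAS5 the share of the 31 genes was between 1.06% (irradiated S2P replicate 1) and 3.503% (nonirradiated Y1P replicate 2).

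**Figure D2:**
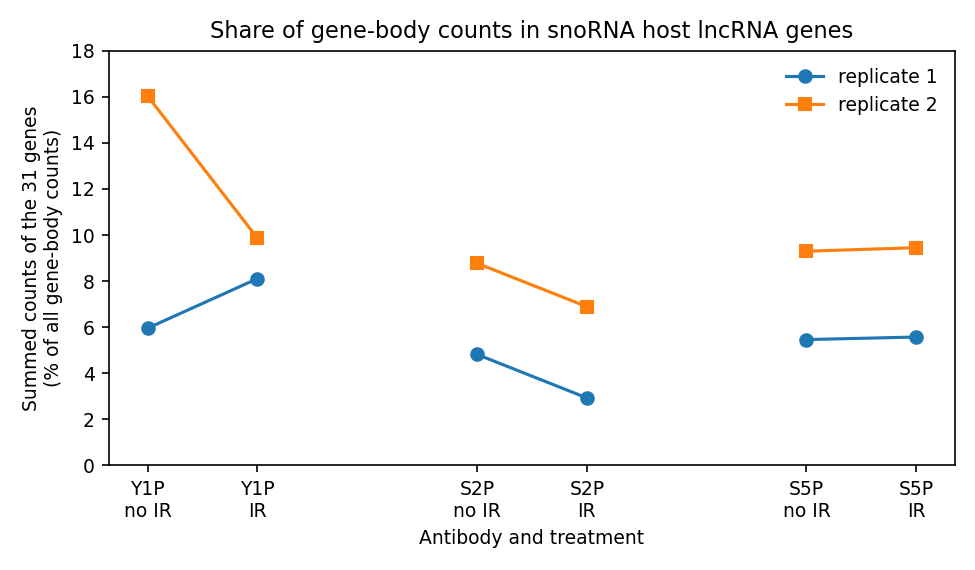
Summed counts of the 31 host genes as a percentage of all gene-body counts (y axis) in each of the 12 libraries, with lines joining the nonirradiated and irradiated library of one replicate number. The highest library, nonirradiated Y1P replicate 2, is at 16.0%, and in both S2P pairs the irradiated library is lower, at 2.93% against 4.82% and at 6.89% against 8.77%.

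Within a pair of one replicate number, the share moved with IR by 2.15 and -6.17 percentage points with Y1P, by -1.89 and -1.88 points with S2P, and by 0.111 and 0.151 points with S5P. Both S2P pairs thus went down, both S5P pairs went slightly up, and the Y1P pairs went opposite ways. No test was made of the summed share, because the members were chosen with earlier results of these data known. In such bulk libraries, fewer cells that transcribe a gene and less transcription per cell cannot be told apart.

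The spread between replicates was set by the same genes. In normalised CPM, replicate 2 over replicate 1 had a median log2 ratio of 0.29 to 0.92 over the 13 box C/D hosts in the 6 groups, against -0.23 to 0.26 over the 8 box H/ACA hosts and -0.023 to 0.047 over all 21246 genes. The median of the box C/D hosts was highest in irradiated S2P cells (0.92) and next in nonirradiated Y1P cells (0.88), where the largest ratios of single genes were found, with log2 ratios of 1.95 for SNHG1, 1.90 for DANCR, 1.72 for SNHG6, 1.64 for SNHG25, 1.62 for SNHG29 and 1.57 for GAS5. SNHG26 went the other way there, and SNHG14 differed by -0.39 to 0.20 across the groups. The 28 ribosomal protein genes with a snoRNA had medians of 0.16 to 0.74 and the 50 without one medians of 0.032 to 0.30. The former were higher in 5 of the 6 groups and lower in irradiated Y1P cells (0.27 against 0.30).

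**Figure D3:**
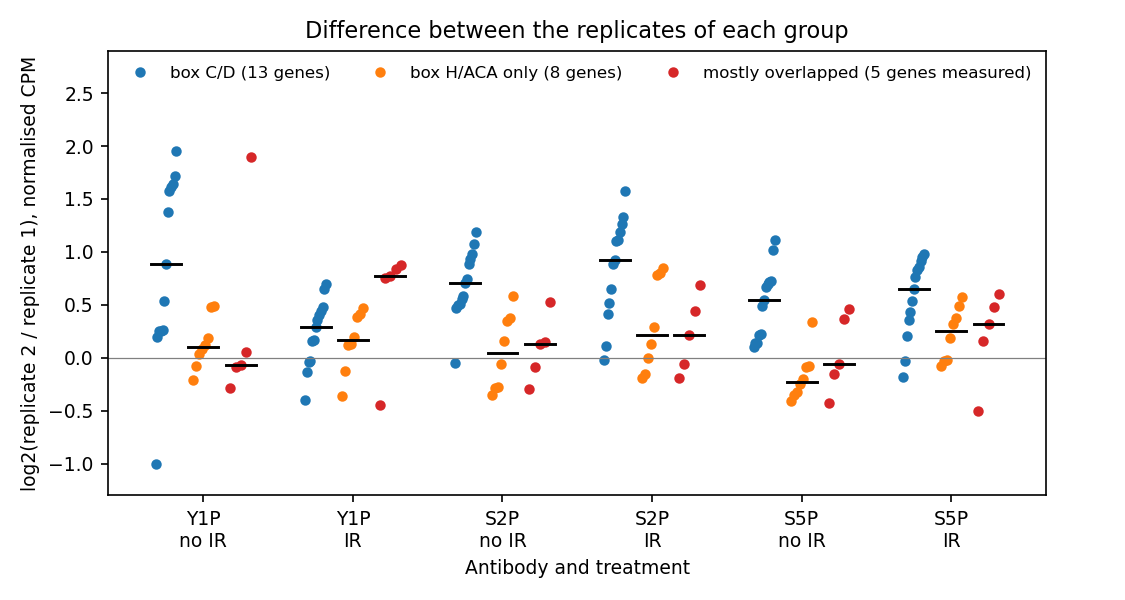
Log2 ratio of replicate 2 over replicate 1 in normalised CPM (y axis) for each measured host gene in each group, by kind of host, with the median as a black bar (SNHG10 and SNHG22 are not drawn). The 13 box C/D hosts have medians of 0.29 to 0.92, and the largest ratio is 1.95 (SNHG1, nonirradiated Y1P).

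The effect of IR was tested for each antibody with edgeR's quasi-likelihood test over 21246 genes with the replicate number as a block, and a gene was called at a Benjamini-Hochberg adjusted p under 0.05 and an absolute log2FC over 0.1. With Y1P, 2 of 28 measured members were called higher (SNHG5 and SNHG18) and 0 lower, against a background of 4.38% of all genes higher and 4.28% lower. Among the 5699 measured lncRNA genes that are no members, 384 were higher and 34 lower with Y1P, so calls there were also mostly higher. With S2P, 0 members were called in either direction, against 0.0847% lower and 0.0141% higher over all genes. With S5P, 0 members were called as well, against 0.0424% lower and 0.00941% higher. At an unadjusted p under 0.05 there were 9 members with Y1P, 7 with S2P and 5 with S5P in the same edgeR test (32.1%, 25% and 17.9% of the 28, against 28.8%, 17.7% and 11.6% of all genes), and DESeq2 on the same libraries gave 6, 1 and 4 (21.4%, 3.57% and 14.3%, against 17.4%, 8.95% and 4.08% of all genes) and called 1 member with Y1P (SNHG5) and 0 with S2P and S5P. The median log2FC of the 28 members was 0.021 with Y1P, -0.096 with S2P and -0.011 with S5P, beside 0.019, 0.021 and -0.0021 over all genes. A fit without one replicate number of an antibody leaves 1 library in each group of that antibody. The p-values of such a fit take their spread from the other antibodies alone. The Y1P counts turned on the pair of libraries used: without Y1P replicate 1, 8 members were called lower and 4 higher, against 7.96% and 6.36% of all genes in that fit, and without Y1P replicate 2, 0 were called lower and 1 higher (ZFAS1), against 0.032% and 0.00914%.

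The hosts with the highest counts carry box C/D snoRNAs and were lower after IR in both S2P pairs without passing the test. SNHG1, located at chr11:62851978-62855953, carries SNORD22 and SNORD25 to SNORD31. SNHG1 was at 24587 and 95210 CPM without IR and at 33093 and 42422 CPM after IR with Y1P, at 21174 and 44548 and then 10001 and 29865 CPM with S2P, and at 20954 and 45327 and then 22129 and 43557 CPM with S5P (replicates 1 and 2 in each case). Replicate 2 was the higher one in every group, and nonirradiated Y1P replicate 2 was far above all others. With S2P, SNHG1 had the lowest estimate among the members (log2FC -0.83, SE 0.27, adjusted p = 0.169), with log2 ratios of -1.08 and -0.58 in its pairs. With Y1P the pairs gave 0.43 and -1.17, and the fit gave log2FC -0.37, SE 0.27, adjusted p = 0.391. With S5P the estimate was near 0 (log2FC 0.01, SE 0.26, adjusted p = 0.992).

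GAS5 (growth arrest-specific 5, chr1:173858559-173868882) is a host of 10 box C/D snoRNAs whose spliced RNA accumulates when growth stops. The normalised counts of GAS5 without and with IR were 18486 and 54991 against 24256 and 27109 CPM for Y1P, 12839 and 24446 against 7105 and 17112 CPM for S2P and 15763 and 25575 against 14826 and 27978 CPM for S5P (replicates 1 and 2). Its libraries ranked much like those of SNHG1, with the irradiated S2P replicate 1 lowest and the nonirradiated Y1P replicate 2 highest. The S2P estimate was negative in both pairs (log2FC -0.68, SE 0.24, adjusted p = 0.189). Y1P gave opposite signs in the pairs, 0.39 and -1.02 (log2FC -0.31, SE 0.24, adjusted p = 0.412), and S5P gave log2FC 0.02, SE 0.24, adjusted p = 0.981.

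SNHG29 carries SNORD49A, SNORD49B and SNORD65. For SNHG29, replicates 1 and 2 gave 4442 and 13609 CPM (no IR) and 6764 and 6638 CPM (IR) with Y1P, 5443 and 8129 CPM and 2665 and 6058 CPM with S2P, and 4518 and 7469 CPM and 4739 and 8444 CPM with S5P. The Y1P groups overlapped, and both irradiated S2P libraries were below their nonirradiated partners (log2FC -0.73, SE 0.26, adjusted p = 0.2). ZFAS1, antisense to the start of the ZNFX1 gene and host of SNORD12, SNORD12B and SNORD12C, had the same order of libraries in S2P. The normalised counts of ZFAS1 without and with IR were 1993 and 5166 against 3421 and 3333 CPM for Y1P, 1741 and 2469 against 1092 and 2069.6 CPM for S2P and 1814 and 2656 against 2192 and 2962 CPM for S5P (replicates 1 and 2). Its S2P estimate was smaller (log2FC -0.46, SE 0.22, adjusted p = 0.293), and its Y1P pairs were 0.78 and -0.63. Without Y1P replicate 1 the Y1P estimate of ZFAS1 turned to -0.65 and without Y1P replicate 2 to 0.82, each from 1 irradiated and 1 nonirradiated Y1P library. Its direction with Y1P thus rests on which pair is used.

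SNHG25 is a gene of 540 bp at chr17:64145937-64146476, and its estimates were below 0 with all 3 antibodies. SNHG25 was at 5030.3 and 15692 CPM without IR and at 5020.5 and 8128 CPM after IR with Y1P, at 5806 and 8044 and then 3004 and 6478 CPM with S2P, and at 5503 and 9041 and then 4059.5 and 6881 CPM with S5P (replicates 1 and 2 in each case). The irradiated libraries overlapped the nonirradiated ones in each case. The estimates were log2FC -0.48, SE 0.19, adjusted p = 0.123 with Y1P, log2FC -0.63, SE 0.19, adjusted p = 0.162 with S2P and log2FC -0.42, SE 0.19, adjusted p = 0.42 with S5P, so that none passed.

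SNHG19 carries SNORD60 and SNHG6 carries SNORD87. For SNHG19, replicates 1 and 2 gave 1338 and 2465 CPM (no IR) and 1762 and 1603 CPM (IR) with Y1P, 935 and 1526 CPM and 605 and 1119.7 CPM with S2P, and 1166 and 1640.3 CPM and 1069 and 1676 CPM with S5P. SNHG6 was at 572 and 1883 CPM without IR and at 743 and 1009.5 CPM after IR with Y1P, at 479 and 1089 and then 303 and 758 CPM with S2P, and at 533 and 1082 and then 536 and 1038 CPM with S5P (replicates 1 and 2 in each case). Both were below their nonirradiated partner in each S2P pair, and both overlapped between treatments. S2P gave log2FC -0.54, SE 0.17, adjusted p = 0.167 for SNHG19. For SNHG6 it gave log2FC -0.59, SE 0.19, adjusted p = 0.173. SNHG12 was steadier, although its replicates also differed. The normalised counts of SNHG12 without and with IR were 697 and 1012 against 689 and 959.7 CPM for Y1P, 464 and 912 against 381 and 817 CPM for S2P and 748 and 874 against 564 and 1021 CPM for S5P (replicates 1 and 2). Its estimates lay between -0.22 (S2P) and -0.05 (Y1P).

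Over all 28 measured members, 11 were lower in both S2P pairs, 10 higher in both and 7 went opposite ways. Of the 13 box C/D hosts, a kind set apart after the values were seen, 9 were lower in both S2P pairs, 2 higher in both and 2 went opposite ways. Their median log2FC with S2P was -0.46. The share of all genes lower in both S2P pairs was not counted, so these counts have no background. With Y1P, 9 of the 13 went opposite ways in their pairs (median -0.11), and with S5P 7 did (median -0.026). All groups share one estimate of the spread, and the S2P calls turned on the Y1P libraries. Without Y1P replicate 1 or without Y1P replicate 2, 7 box C/D hosts were called lower with S2P, in both cases SNHG1, GAS5, SNHG29, SNHG25, SNHG6, SNHG19 and ZFAS1, with adjusted p from 0.00154 to 0.0443. The background of genes called lower rose in these fits to 0.676% and 0.941% of all genes. In a separate fit of the S2P libraries 6 of these, all but ZFAS1, were called lower (0.898% of all genes), and without S5P replicate 1 SNHG29 and SNHG6 were (0.502%). Without S2P replicate 1 or replicate 2 the count stayed at 0, a design in which the S2P contrast has 1 library per group.

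**Figure D4:**
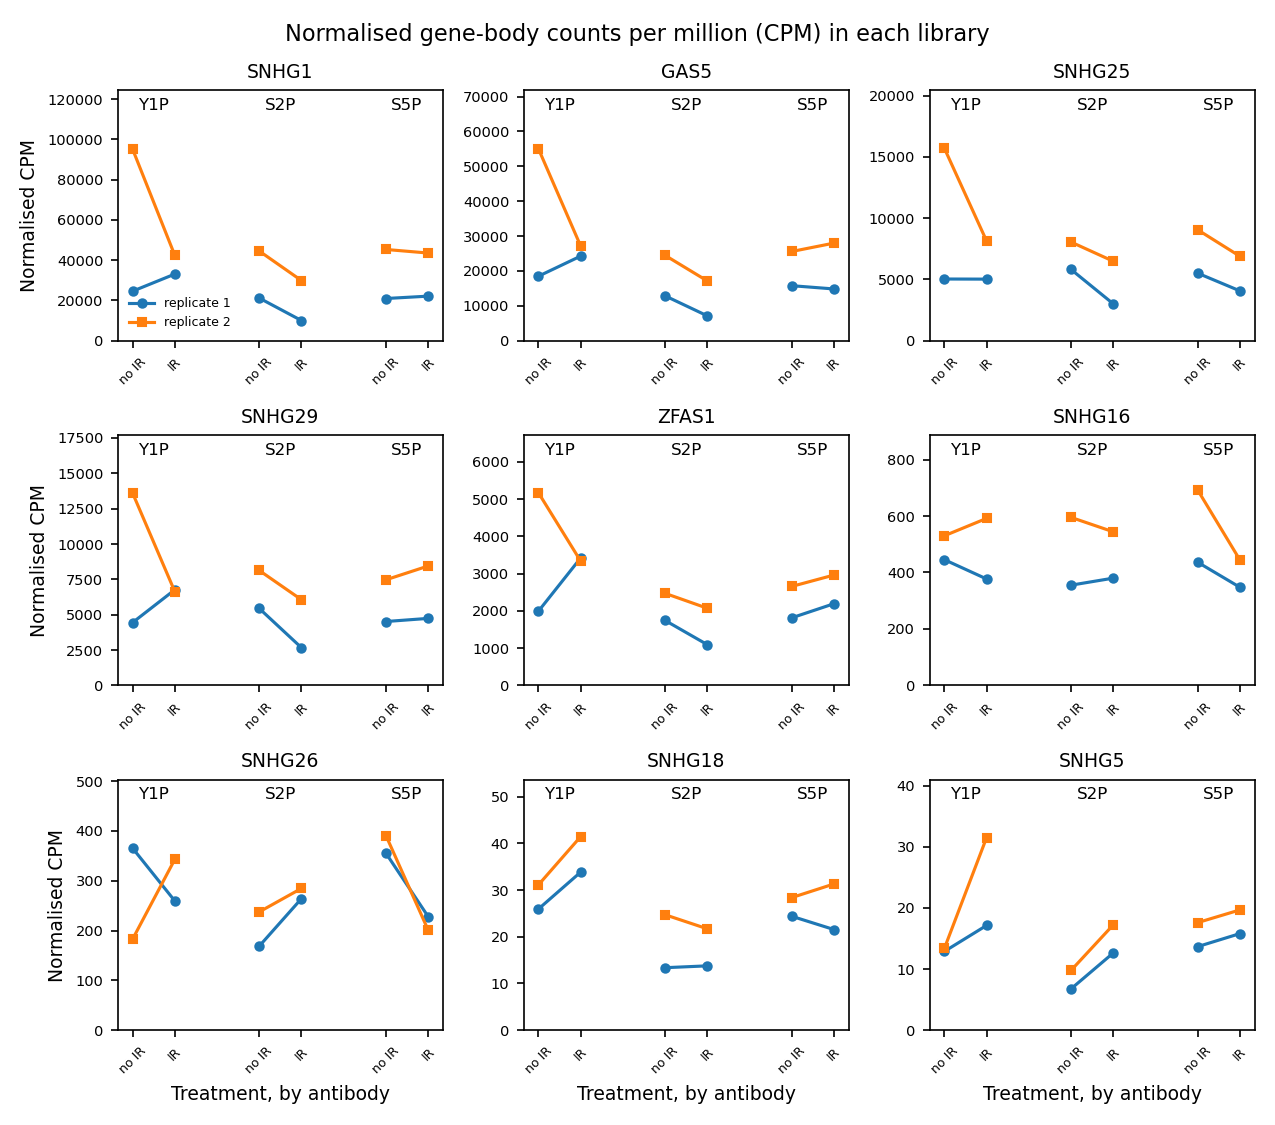
Normalised CPM (y axes, from 0) of 9 host genes in each library, by antibody and treatment, with lines joining the libraries of one replicate number. The top row and the first 2 panels of the second row are box C/D hosts with lower values after IR in both S2P pairs, and SNHG5 and SNHG18 are the 2 genes called higher with Y1P.

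SNHG16 and SNHG26 were lower after IR with S5P in both pairs, without passing the test. SNHG16 carries SNORD1A, SNORD1B and SNORD1C. For SNHG16, replicates 1 and 2 gave 445 and 530.1 CPM (no IR) and 377 and 592 CPM (IR) with Y1P, 355 and 595 CPM and 380.0 and 544 CPM with S2P, and 436 and 692 CPM and 347 and 444 CPM with S5P. With S5P each replicate was below its nonirradiated partner (log2FC -0.48, SE 0.11, adjusted p = 0.19), whereas the Y1P and S2P pairs went opposite ways. SNHG26, the host of SNORD93, had the lowest S5P estimate of all members (log2FC -0.80, SE 0.22, adjusted p = 0.248). The normalised counts of SNHG26 without and with IR were 365 and 183 against 259 and 343 CPM for Y1P, 169 and 237 against 264 and 285 CPM for S2P and 355 and 391 against 228 and 201 CPM for S5P (replicates 1 and 2). Both irradiated S5P libraries of SNHG26 were below both nonirradiated ones, both irradiated S2P libraries were above both nonirradiated ones, and the Y1P groups overlapped. S2P gave log2FC 0.45, SE 0.22, adjusted p = 0.29. With S5P, SNHG26 was called lower when Y1P replicate 1, Y1P replicate 2 or S5P replicate 1 was left out (adjusted p = 0.00557, 0.0111 and 0.00031), and SNHG16 when Y1P replicate 1 was (adjusted p = 0.0483).

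SNHG5, the host of SNORD50A and SNORD50B, was the member with the smallest adjusted p upon IR. SNHG5 was at 12.9 and 13.4 CPM without IR and at 17.1 and 31.5 CPM after IR with Y1P, at 6.76 and 9.78 and then 12.6 and 17.2 CPM with S2P, and at 13.7 and 17.6 and then 15.8 and 19.7 CPM with S5P (replicates 1 and 2 in each case). With Y1P both irradiated libraries were above both nonirradiated ones (log2FC 0.83, SE 0.16, adjusted p = 0.0213), with a larger difference in replicate 2 than in replicate 1 (log2 ratios 0.41 and 1.23). With S2P the groups did not overlap either, and the estimate of similar size missed the threshold (log2FC 0.86, SE 0.17, adjusted p = 0.106). It was called with S2P when either replicate of Y1P or of S5P was left out (adjusted p from 8.03e-05 to 0.00929). S5P gave log2FC 0.18, SE 0.16, adjusted p = 0.667. The Y1P call held in 15 of 18 alternatives and was lost without Y1P replicate 2 (log2FC 0.45, adjusted p = 0.432). The gene body of SNHG5 was 0.7% free of other genes, and its counts came to a mean of 333 per library.

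SNHG18, the host of SNORD123, was the second gene called with Y1P. For SNHG18, replicates 1 and 2 gave 25.9 and 31.1 CPM (no IR) and 33.9 and 41.5 CPM (IR) with Y1P, 13.4 and 24.7 CPM and 13.8 and 21.7 CPM with S2P, and 24.4 and 28.4 CPM and 21.5 and 31.3 CPM with S5P. Both irradiated Y1P libraries were above both nonirradiated ones, and the pairs were close (log2 ratios 0.38 and 0.41, log2FC 0.40, SE 0.12, adjusted p = 0.0477). The S2P and S5P pairs went opposite ways. The call lay close to the threshold and was lost without any one replicate number of any antibody (adjusted p from 0.0532 to 0.44), and after removal of each library's trend with gene length the log2FC was 0.037 (adjusted p = 0.886).

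**Figure D5:**
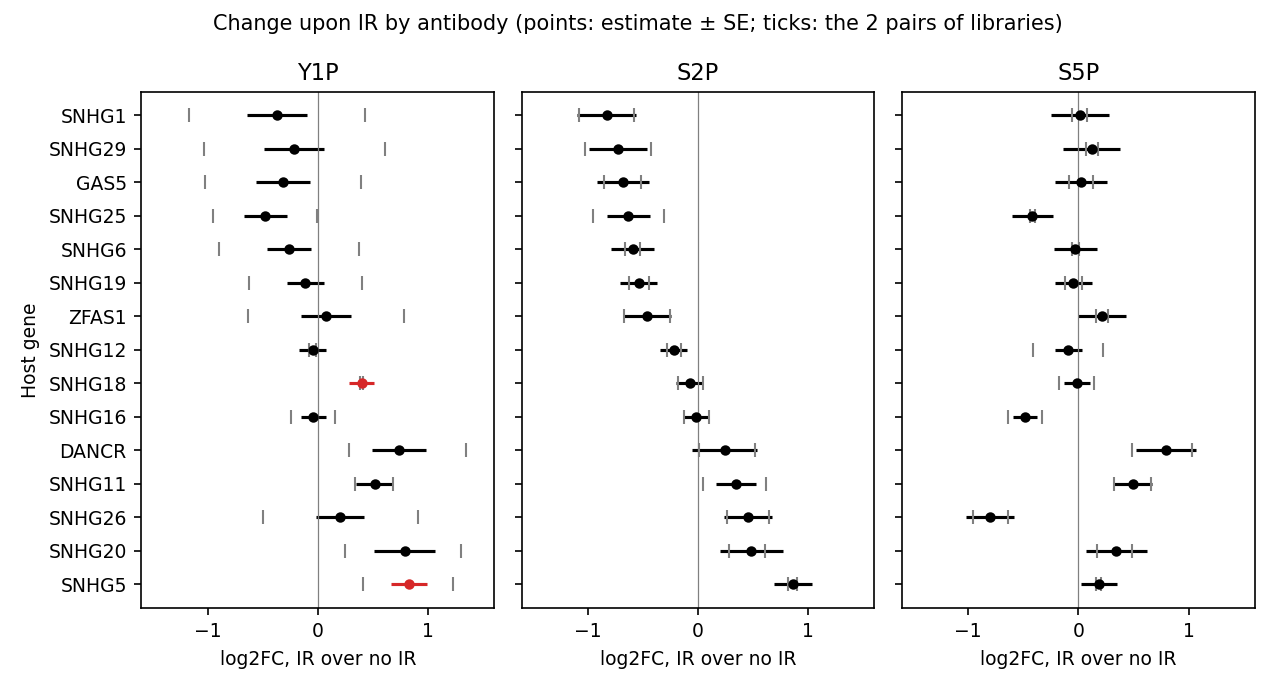
Log2FC upon IR with its SE for the 15 named host genes by antibody, ordered by the S2P estimate, with grey ticks for the log2 ratios of the 2 pairs of libraries and red points for called genes. Only SNHG5 (0.83) and SNHG18 (0.40) with Y1P are red, and SNHG1 has the lowest S2P estimate (-0.83).

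DANCR, SNHG20 and SNHG11 had positive estimates with all 3 antibodies, none of which passed. DANCR, the host of SNORA26 and named for its part in holding back differentiation, had few counts (a mean of 81.6 per library). DANCR was at 1.88 and 7.29 CPM without IR and at 4.94 and 8.91 CPM after IR with Y1P, at 2.33 and 1.88 and then 2.35 and 2.73 CPM with S2P, and at 2.68 and 2.56 and then 3.79 and 5.32 CPM with S5P (replicates 1 and 2 in each case). Its Y1P groups overlapped, since nonirradiated replicate 2 was above irradiated replicate 1 (log2FC 0.74, SE 0.25, adjusted p = 0.0746). With S5P both irradiated libraries were the higher ones (log2FC 0.80, SE 0.28, adjusted p = 0.333). Without S5P replicate 1 and without S5P replicate 2 the Y1P estimate was called (adjusted p = 0.0218 and 0.0397).

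SNHG20, which has no annotated snoRNA of its own, was lower still. The normalised counts of SNHG20 without and with IR were 2.19 and 1.78 against 2.61 and 4.52 CPM for Y1P, 1.76 and 1.94 against 2.74 and 2.38 CPM for S2P and 2.68 and 2.4 against 3.03 and 3.39 CPM for S5P (replicates 1 and 2). It gave log2FC 0.79, SE 0.28, adjusted p = 0.0832 with Y1P. SNHG11, the host of SNORA60 and SNORA71E, had all irradiated values above the nonirradiated ones for each antibody. For SNHG11, replicates 1 and 2 gave 9.16 and 9.42 CPM (no IR) and 11.6 and 15.2 CPM (IR) with Y1P, 4.95 and 7.44 CPM and 7.66 and 7.67 CPM with S2P, and 8.89 and 6.92 CPM and 11.1 and 11 CPM with S5P. The estimates were log2FC 0.52, SE 0.17, adjusted p = 0.0664 with Y1P and log2FC 0.50, SE 0.17, adjusted p = 0.335 with S5P. Without S5P replicate 1 the Y1P estimate was called (adjusted p = 0.0416).

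Whether the effect of IR differed between antibodies was tested by the interaction terms of the same fit, and 0 members passed in any of the 3 contrasts with edgeR or with DESeq2 on the same libraries. Over all genes 0% passed for S2P against Y1P and for S5P against Y1P, and 0.00471% for S5P against S2P. SNHG26 had the smallest unadjusted p, for S5P minus S2P (difference in log2FC -1.26, SE 0.30, adjusted p = 0.759). For SNHG1 the same difference was 0.84 (SE 0.37, adjusted p = 0.999). At an unadjusted p under 0.05 there were 1, 5 and 6 members in the 3 contrasts (3.57%, 17.9% and 21.4%), against 3.11%, 7.38% and 4.33% of all genes. Without Y1P replicate 2, 6 members passed for S2P minus Y1P (0.0868% of all genes) and 4 for S5P minus S2P (0.105%), and without Y1P replicate 1, 5 passed for S5P minus Y1P (0.182%) and 1 for S5P minus S2P (0.0771%). Without S5P replicate 1, 1 passed in each of the contrasts that involve S5P (0.0272% of all genes against Y1P and 0.122% against S2P).

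Between antibodies in nonirradiated cells, with an absolute log2FC over 1 required, 1 member was called. SNHG32, the host of SNORD48 and SNORD52, was higher with S2P than with Y1P (log2FC 2.04, SE 0.44, adjusted p = 0.00833), on a mean of 18.2 counts per library and with 0.9% of its gene body free. Its nonirradiated values were 0.307 and 0.287 CPM with Y1P and 1.19 and 1.32 CPM with S2P, and the call was lost without Y1P replicate 2 and without S2P replicate 1. The background was 1.02% of genes lower and 0.0659% higher for S2P over Y1P, and 0% in each direction for S5P over Y1P and for S5P over S2P. Of the 28 members, 25 had estimates below 0 for S2P over Y1P (median -0.36), beside 11705 of all 21246 genes (median -0.039). Of the lncRNA genes that are no members, 4296 of 5699 were below 0 (median -0.31), so the members' median was close to theirs. Some members had an adjusted p under 0.05 short of an absolute log2FC of 1, a share not counted over all genes. Among them were GAS5 (log2FC -0.88, SE 0.21, adjusted p = 0.0149), SNHG18 (log2FC -0.62, SE 0.13, adjusted p = 0.00806) and SNHG5 (log2FC -0.70, SE 0.16, adjusted p = 0.0107). With nonirradiated Y1P replicate 2 left out and no replicate block, the median of the members for S2P over Y1P was 0.025. That setting compares nonirradiated Y1P replicate 1 alone with both nonirradiated S2P replicates. With the block kept, the median was -0.36 without Y1P replicate 1 and -0.24 without Y1P replicate 2. Without Y1P replicate 1, 4 members were called lower for S2P over Y1P (0.744% of all genes), and 2 lower and 1 higher for S5P over Y1P (0.0771% and 0.109%). Without S2P replicate 2, 1 was called higher for S5P over S2P (0.0588%). For SNHG1, S2P over Y1P differed mainly in the second replicate, with log2 ratios of -0.22 and -1.10 in the pairs.

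Genes of the wider pathway were counted from lists, beside a background with Y1P of 5.67% lower and 3.57% higher among 14415 protein-coding genes without a snoRNA. These Y1P calls also rest on the pair used: without Y1P replicate 2, 0 genes of the 5 lists were called in either direction (0.041% lower and 0.00683% higher in the background), and without Y1P replicate 1, 21 were lower and 4 higher (10.5% and 5.73%). With Y1P and all libraries, 0 of 8 core proteins of box C/D and H/ACA particles (fibrillarin, dyskerin and their partners) were called. Of 21 assembly and processing factors, 5 were lower and 0 higher, among them XRN2 (log2FC -0.33, adjusted p = 0.0316), a nuclear 5′ exonuclease that trims snoRNAs, EXOSC10 (log2FC -0.39, adjusted p = 0.0393), a nuclear exosome nuclease, and PARN (log2FC -0.32, adjusted p = 0.0481), which trims 3′ ends. The others were DIS3 (log2FC -0.40, adjusted p = 0.0452), a catalytic subunit of the exosome, and TENT4B (log2FC -0.50, adjusted p = 0.0319), a noncanonical poly(A) polymerase.

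Of 14 measured nonsense-mediated decay factors, SMG1 (log2FC -0.36, adjusted p = 0.0307), the kinase of the pathway, and UPF2 (log2FC -0.28, adjusted p = 0.0495) were lower and 0 higher. Of 19 nucleolar genes, 4 were lower and 0 higher: UTP4 (log2FC -0.58, adjusted p = 0.0143) and WDR43 (log2FC -0.49, adjusted p = 0.0309), of the small-subunit processome, TAF1A (log2FC -0.54, adjusted p = 0.0356), of the Pol I initiation complex, and POLR1A (log2FC -0.30, adjusted p = 0.0437), the largest Pol I subunit. Of 12 mTORC1 and TOP regulators, 3 were lower and 0 higher, RPS6KB1 (log2FC -0.65, adjusted p = 0.0272), MTOR (log2FC -0.30, adjusted p = 0.0449) and LARP4 (log2FC -0.39, adjusted p = 0.0272). With S2P and S5P, 0 genes of the 5 lists were called. The list medians with Y1P ran from -0.21 to -0.059.

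Protein-coding hosts and ribosomal protein genes served as comparison. Of 246 measured protein-coding snoRNA hosts, 25 were lower and 8 higher with Y1P (median log2FC -0.16), and 0 were called with S2P (median -0.12) or S5P (median -0.088). Without Y1P replicate 1 the Y1P counts were 60 and 16, and without Y1P replicate 2 they were 0 and 0. Ribosomal protein genes split by their snoRNAs: with S2P the 28 that hold one had a median of -0.24 and the 50 without one a median of 0.15, and with Y1P the medians were 0.00042 and 0.21, with 1 and 11 genes higher (3 and 14 without Y1P replicate 1, 0 and 0 without Y1P replicate 2). The 28 took 2.30% to 6.87% of a library and the 50 took 0.162% to 0.263%. Other lncRNA genes had medians of 0.28 with Y1P and 0.21 with S2P, beside 0.021 and -0.096 for all 28 measured members. The members differed by kind. With Y1P and S2P the medians were -0.11 and -0.46 for the 13 box C/D hosts and 0.044 and -0.12 for the 8 box H/ACA hosts. For the 5 measured hosts that were mostly overlapped they were 0.79 and 0.47.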

How the data were processed

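The authors trimmed the mNET-seq reads with cutadapt 1.8.3, used STAR for alignment to hg38 and SAMtools to retain unique alignments, discarded PCR duplicates and internal priming events, and counted reads per gene body by strand with featureCounts. The deposited values are raw counts, 1 column for each of 24 runs. Runs of one replicate number differed by about sampling noise (chi-square per degree of freedom 1.06 to 1.10, against 8.95 to 61.2 between replicate numbers) and were summed. Of 55399 entries, 1022 that repeated an ID held 0 counts and were dropped. IDs were matched without version to GENCODE release 44, and 120 IDs (0.0116% of counts) had no match.

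Counts were tested with edgeR 4.0.16 (TMM, filterByExpr, quasi-likelihood, R 4.3.3), all 12 libraries in one fit with replicate number as a block within antibody (3 residual degrees of freedom) or, between antibodies, as 1 shared block (5). The block comes from the study's methods. Samples of one replicate number deviated together, with correlations of 0.17 to 0.39 over 15 pairs of groups. The 3 pairs within an antibody, on which the block of the IR tests rests, gave 0.17 to 0.28, with Y1P the lowest. Level is normalised CPM divided by kb of gene body. Log2 ratios within a pair used a prior count of 2. In counts simulated for the Y1P comparison over 20873 genes, 39% of genes changed by 0.5 on the log2 scale and 91% of those changed by 1 were recovered. Of the unchanged genes, 10 were called. The changed genes had a mean of at least 50 counts, and each replicate kept the same offset with and without IR. Genes whose pairs went opposite ways were not simulated as such, so these shares do not describe them.

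The members and lists were chosen with earlier results of these data known. Values in every library are given for GAS5, ZFAS1, DANCR, the 8 members with the largest mean share, all called members with a mean of at least 50 counts and, per antibody and direction, the 3 with the largest log2FC at that mean. From the lists, called genes are named. SNHG32, SNHG21, SNHG7 and SNHG14 fall outside that rule and were named after their values were seen. Alternatives were other scaling factors, filters, DESeq2 1.42.0, no block, separate fits, a gene length correction and leaving out each replicate number. Sequences come from hg38 and RefSeq.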

Additional observations from a re-analysis of the deposited data

Results flagged for a closer look

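The summed share of the 31 host genes moved opposite ways with IR for S2P and S5P in every pair of libraries. It changed by a mean of -1.89 percentage points with S2P (-1.89 and -1.88 in the pairs) and by a mean of 0.131 points with S5P (0.111 and 0.151). This difference was not tested, and the interaction terms of the single genes passed for 0 members. The S5P change is small beside the SD between replicates of 2.71 points, which is not the spread of changes within pairs. No group held the 4 samples that a check for a single distant library needs.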

How the results depend on the processing

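Of the 15 counts of called members, each also had a value under other settings. Members called lower and higher with IR and Y1P numbered 0 and 2. Without a filter on low counts they were 4 and 6, with the gene length trend removed 1 and 1, with library totals alone 0 and 4, and with relative log expression factors, with TMM factors from genes holding no snoRNA or with DESeq2 on the same libraries 0 and 1. DESeq2 on the runs gave 0 and 4. With no replicate block they were 0 and 0, also with nonirradiated Y1P library 2 left out. For S2P (0 and 0) no filter gave 7 and 2, separate fits 6 and 2, and DESeq2 on the runs 0 and 1. For S5P (0 and 0) no filter gave 3 and 1, separate fits 3 and 3, and DESeq2 on the runs 1 and 1. The interaction terms (0, 0 and 0) gave 3, 2 and 7 without a filter, and DESeq2 on the runs 0, 1 and 1. Between antibodies, DESeq2 on the runs called 1 member lower for S2P over Y1P, and the 1 higher was 0 with no replicate block, with that library also left out, with a stricter filter and with DESeq2 on the same libraries. Runs of one library are not replicates, and the causes of these changes were not tested.

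Leaving out each replicate number in turn gave ranges of 0 to 8 (lower) and 1 to 4 (higher) for Y1P, 0 to 7 and 0 to 2 for S2P, 0 to 2 (lower) for S5P, 0 to 6, 0 to 5 and 0 to 4 for the interactions, and 0 to 4 and 0 to 1 for S2P over Y1P, 0 to 2 and 0 to 1 for S5P over Y1P, and 0 to 1 higher for S5P over S2P. For the pathway lists and comparison genes these fits were chosen after the data were seen. The lone library of an arm was then assumed to vary like the other groups. ZFAS1 with Y1P reversed to -0.65 without Y1P replicate 1 and was 0.82 without Y1P replicate 2. The shares of counts moved by less than their SD in all 3 alternatives. Of the log2FC values of named members under other settings, 699 kept their side of the threshold and direction (or were called in neither case), 79 passed only there and 17 no longer passed. Library totals alone moved the median of all genes to 0.21 with Y1P and 0.19 with S2P. SNHG1, GAS5, SNHG29, SNHG25, SNHG6, SNHG19 and ZFAS1 were below 0 with S2P in all 18 alternatives. Both S2P pairs of these genes were below 0 and the alternatives reuse the same S2P libraries, so the shared sign is no separate evidence.

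Few counts limit DANCR, SNHG20 and SNHG32, and 2 libraries per group limit every comparison.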
